A study of Mus musculus with 20 samples.

Results

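Wide TFIIIC blocks are broad merged regions that held a peak from every TFIIIC library. The libraries come from a chromatin immunoprecipitation sequencing (ChIP-seq) study of mouse embryonic fibroblasts. Peaks of the 4 TFIIIC libraries on chromosomes 1 to 19 were merged wherever they overlapped by at least 1 bp. A merged region was kept as a block when it held a peak from all 4 libraries and was at least 5 kb wide. Of 423013 merged regions, 75732 held a peak from all 4 libraries, and 2494 of these were blocks (3.29% of the four-library regions and 0.590% of all merged regions). The blocks were thus selected on the presence and the positions of the TFIIIC peaks, so every TFIIIC value below is a description and carries no test. H3K27me3, CAP-D3 and CAP-H2 peaks were not used in the choice.

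The cells were fibroblasts from C57BL/6 embryos at E13.5 (embryonic day), grown to passage 4 and collected while proliferating asynchronously. One group was wild type (WT), and the other carried the Rb1L/L genotype (RbL), in which both copies of the retinoblastoma gene hold the L allele. TFIIIC was precipitated through its TFIIIC-220 subunit from formaldehyde-fixed cells, whereas cells for H3K27me3, CAP-D3 and CAP-H2 were fixed with EGS, a longer protein crosslinker, and formaldehyde. TFIIIC and H3K27me3 had 2 libraries per genotype, and each condensin II subunit had 1 library per genotype. The labels do not say whether libraries of a group came from separate cultures, so the spread between H3K27me3 libraries of a genotype could be technical. The condensin II p-values run over 2 subunits in 2 genotypes with 1 library each and hold no replicate spread.

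TFIIIC is the multisubunit factor that recognises the internal promoter elements of transfer RNA genes and recruits TFIIIB and RNA polymerase III. It also occupies sites without RNA polymerase III, and it has been linked to chromosome architecture and insulation. Condensin II is the condensin complex found in the nucleus throughout the cell cycle. CAP-D3 and CAP-H2 belong to that complex and not to condensin I. H3K27me3 is the trimethylation that Polycomb repressive complex 2 places on histone H3, and it marks silenced developmental genes. The retinoblastoma protein, pRb, restrains E2F factors and binds chromatin regulators through a cleft that reads LXCXE motifs, and the L allele disrupts that cleft.

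The files gave peak intervals with a score for each peak. The TFIIIC lists held from 200350 to 301874 peaks, the H3K27me3 lists from 24741 to 56396, the CAP-D3 lists 17576 and 13233, and the CAP-H2 lists 42737 and 43151. Read depth behind the peaks is unknown, and the 8 input libraries were not analysed here. The WT condensin II lists share an input with H3K27me3 WT 2, and the RbL condensin II lists share one with H3K27me3 RbL 1. Positions are mm9 coordinates, and genes in the blocks were not analysed here.

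The blocks were mostly only a little wider than the limit, with a thin tail of very broad ones. Their median width was 6438 bp, with quartiles at 5549 and 8169.8 bp. Between 5 and 6 kb lay 982 blocks (39.4%), while 324 blocks (13.0%) reached 10 kb and 21 reached 20 kb. The median of the 73238 four-library regions under 5 kb was 1385 bp. The blocks therefore held 18.6 Mb of the 140.1 Mb in all four-library regions (13.2%).

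No gap separated the blocks from the regions just below the limit. The narrowest block, at chromosome 17, 30350862 to 30355861, measured 5000 bp, and TFIIIC peaks covered 56.1%, 62.8%, 82.1% and 90.4% of it in WT 1, WT 2, RbL 1 and RbL 2. The widest region outside the rule, at chromosome 3, 55385239 to 55390237, measured 4999 bp and was covered over 61.1%, 76.3%, 93.5% and 85.8% in the same order. The 3 blocks just inside the limit were 5000, 5002 and 5004 bp wide, and the 3 regions just under it 4999, 4999 and 4998 bp. Lowering the limit to 4 kb gave 4271 regions, raising it to 10 kb left 324, and also merging peaks across gaps of up to 1 kb gave 15833.

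**Figure D1:**
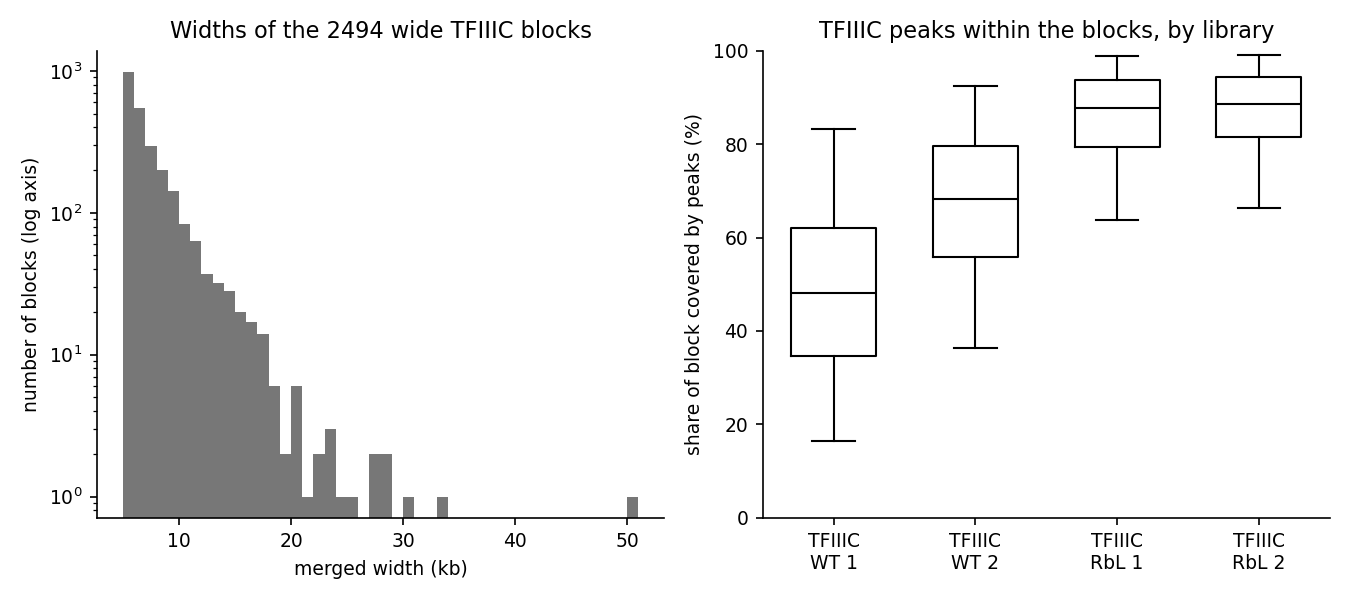
Width of the blocks and the share of each block covered by TFIIIC peaks in each of the 4 libraries (boxes show the quartiles and median, whiskers the 5th and 95th percentiles over 2494 blocks). Most blocks are under 10 kb wide, and the covered share is lowest in WT 1.

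The same blocks looked different from library to library, because a block is the union of 4 peak lists. TFIIIC peaks covered 50.0% of block base pairs in WT 1, 68.3% in WT 2, 86.2% in RbL 1 and 87.3% in RbL 2. Both RbL libraries lay above both WT libraries, and WT 1 was the lowest in 2034 blocks (81.6%). The four-library regions under 5 kb were covered over 57.7%, 65.6%, 79.6% and 79.5%. A block held on average 3.56 separate peaks in WT 1, 3.74 in WT 2, 2.84 in RbL 1 and 2.75 in RbL 2, so the WT lists broke the blocks into more and shorter peaks.

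Few blocks were a single broad peak in every library. One peak of at least 5 kb was called inside 63 blocks in WT 1, 112 in WT 2, 577 in RbL 1 and 659 in RbL 2. It was called in all 4 libraries in 42 blocks (1.68%) and in no library in 1574 (63.1%). Both RbL libraries and no WT library had such a peak in 244 blocks, and the reverse held in 1 block. The median of the highest TFIIIC score in a block was 521.5 in WT 1, 1371 in WT 2, 1984 in RbL 1 and 2863 in RbL 2, against 217, 428, 417 and 559.5 in regions under 5 kb. The score is the authors' own value for each peak, taken here as −10 times the log10 of its p-value since the column has no name, and many peaks are tied at 3100.

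Both RbL libraries covered more of the block than both WT libraries in 1978 blocks (79.3%), where the same order held in 46.7% of all four-library regions. The reverse order held in 21 blocks (0.842%), against 4.11% of all four-library regions. Nothing is read from these counts, since the TFIIIC peaks fixed the blocks. The RbL lists were also the 2 longest, and the part of list length in these differences was not tested. Without RbL 1 the rule gave 1546 blocks and without RbL 2 it gave 1491, against 2191 without WT 1 and 2013 without WT 2.

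The blocks were spread unevenly over the chromosomes. Chromosome 5 held the most, 268, followed by chromosome 2 with 236 and chromosome 4 with 233. As a share of a chromosome's four-library regions, blocks were most frequent on chromosome 17, where they made up 219 regions (5.93%). They were least frequent on chromosome 3, with 32 (0.855%), and on chromosome 1, with 60 (1.26%). With each chromosome cut into 5 equal parts, the part farthest from the coordinate start held 37.5% of the blocks and 27.7% of the narrower four-library regions. Mouse chromosomes carry their centromere at the coordinate start, so this is the distal part.

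**Figure D2:**
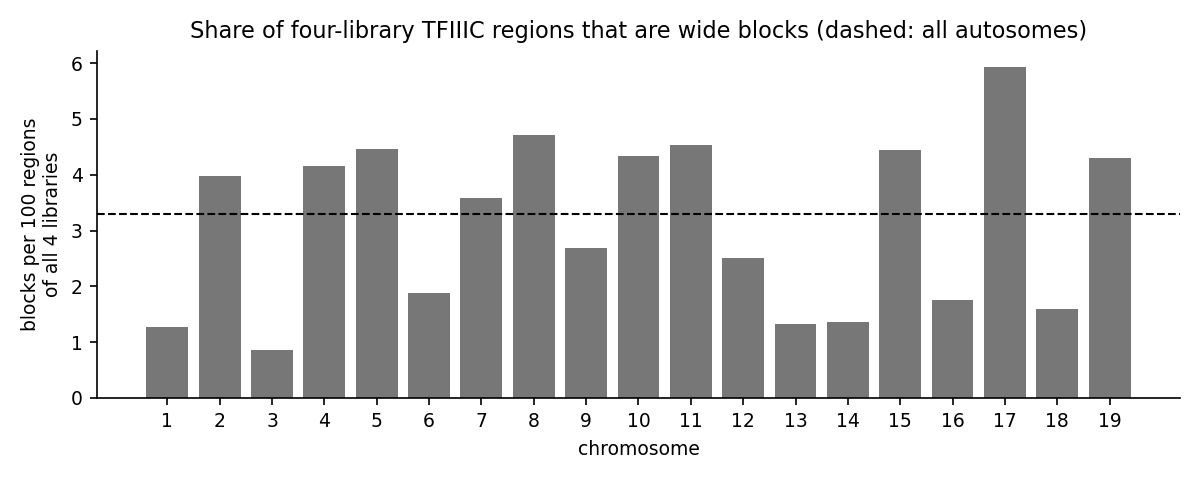
Blocks per chromosome, as a percentage of that chromosome's TFIIIC regions found in all 4 libraries, with a dashed line at the share over all autosomes. Chromosome 17 has the highest share, 5.93%, and chromosome 3 the lowest, 0.855%.

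Many blocks lay close to another. The median distance to the nearest block was 18050.5 bp, and 1017 blocks (40.8%) had another within 10 kb. When blocks within 50.0 kb were chained, 870 (34.9%) stood alone, and 86 chains of at least 5 blocks held 602 blocks (24.1%). The 3 chains with the most blocks all lay on chromosome 10. They ran from 79145125 to 79618528 with 24 blocks, from 80494794 to 80887581 with 21, and from 80002793 to 80377649 with 18. Blocks filled 46.1% of the first span and 54.1% of the second.

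The widest block spanned chromosome 1, 90122939 to 90173246 (50308 bp), and was made of 19, 3, 6 and 5 TFIIIC peaks in WT 1, WT 2, RbL 1 and RbL 2. These peaks covered 80.2%, 96.3%, 96.4% and 99.3% of it. The next was 33072 bp wide at chromosome 8, 124995578 to 125028649, and a neighbour of 28548 bp followed at 125031311 to 125059858. WT 1 split the larger of this pair into 21 peaks and RbL 2 into 3. Chromosome 5 carried 2 of the 8 widest blocks, at 114833192 to 114863736 and at 125553579 to 125581151, and neither had a CAP-D3 or H3K27me3 peak.

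The top TFIIIC score was at least 3100 in all 4 libraries in 33 blocks, from 5167 to 18386 bp wide, and those named here were taken among them by mean score and then by width. A block at chromosome 13, 120276164 to 120282299, was 1 peak in each library and was covered over 99.7%, 98.0%, 99.8% and 98.2%. A block of 18386 bp at chromosome 3, 93005637 to 93024022, was covered over 94.0%, 99.0%, 99.8% and 99.8%, with a top score of 3100 in every library and no peak of any other antibody. A block at chromosome 8, 19914370 to 19932716, also had only TFIIIC peaks. In contrast with most blocks, its covered share was highest in WT 1 (99.7%) and lowest in RbL 2 (52.3%).

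Condensin II peaks were found in a minority of the blocks, CAP-H2 more often than CAP-D3. CAP-H2 peaks lay in 725 blocks in WT (29.1%, exact 95% binomial interval 27.3 to 30.9) and in 707 in RbL (28.3%, 26.6 to 30.2). CAP-D3 peaks lay in 274 blocks in WT (11.0%, 9.79 to 12.3) and in 239 in RbL (9.58%, 8.46 to 10.8). These intervals cover counting error only. In 1467 blocks (58.8%) no H3K27me3, CAP-D3 or CAP-H2 peak was present, against 86.6% of regions under 5 kb, but a wider region is more likely to hold any peak. The tests that follow therefore use the share of base pairs covered.

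Per base pair, condensin II covered more of the blocks than of the narrower regions in all 4 lists. CAP-H2 covered 6.53% of the blocks in WT and 6.21% in RbL, against 3.16% and 3.08% of the four-library regions under 5 kb. CAP-D3 covered 1.15% and 1.10% of the blocks, against 0.917% and 0.843%. The CAP-H2 lists showed about 2.06-fold and 2.02-fold more in the blocks, and the CAP-D3 lists 1.25-fold and 1.31-fold. The mean log2 ratio was 0.69 ± 0.39 (SD, n = 4 lists), with p = 0.125 in a two-sided exact sign-flip permutation test, the smallest p that 4 lists allow. The 4 lists are 2 subunits in 2 genotypes and share inputs within a genotype, so they are not fully independent. Against four-library regions of 2 to 5 kb the mean log2 ratio was 0.57. The surroundings differed too: 9 to 10 kb outside, CAP-H2 covered 7.24% and 6.99% around the blocks in WT and RbL. Around regions of 2 to 5 kb it covered 4.54% and 4.40%. CAP-D3 covered 2.20% and 2.19% around the blocks, against 1.43% and 1.37% around those regions. The part of the surroundings in the difference was not tested.

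CAP-H2 coverage was higher in wider classes of four-library regions, in both genotypes. In WT it was 1.77% of base pairs in regions under 1 kb, 2.83% at 1 to 2 kb, 4.65% at 4 to 5 kb, 5.47% in blocks under 7.5 kb, 6.94% in blocks of 7.5 to 10 kb and 8.60% in wider blocks. In RbL the same classes held 1.74%, 2.76%, 4.53%, 5.07%, 6.82% and 8.27%, and the only step without an increase was from 2 to 3 kb (3.60%) to 3 to 4 kb (3.59%). CAP-D3 showed no such steady order. In WT it was 1.03% at 1 to 2 kb, 0.787% at 4 to 5 kb and 1.55% in blocks of at least 10 kb.

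**Figure D3:**
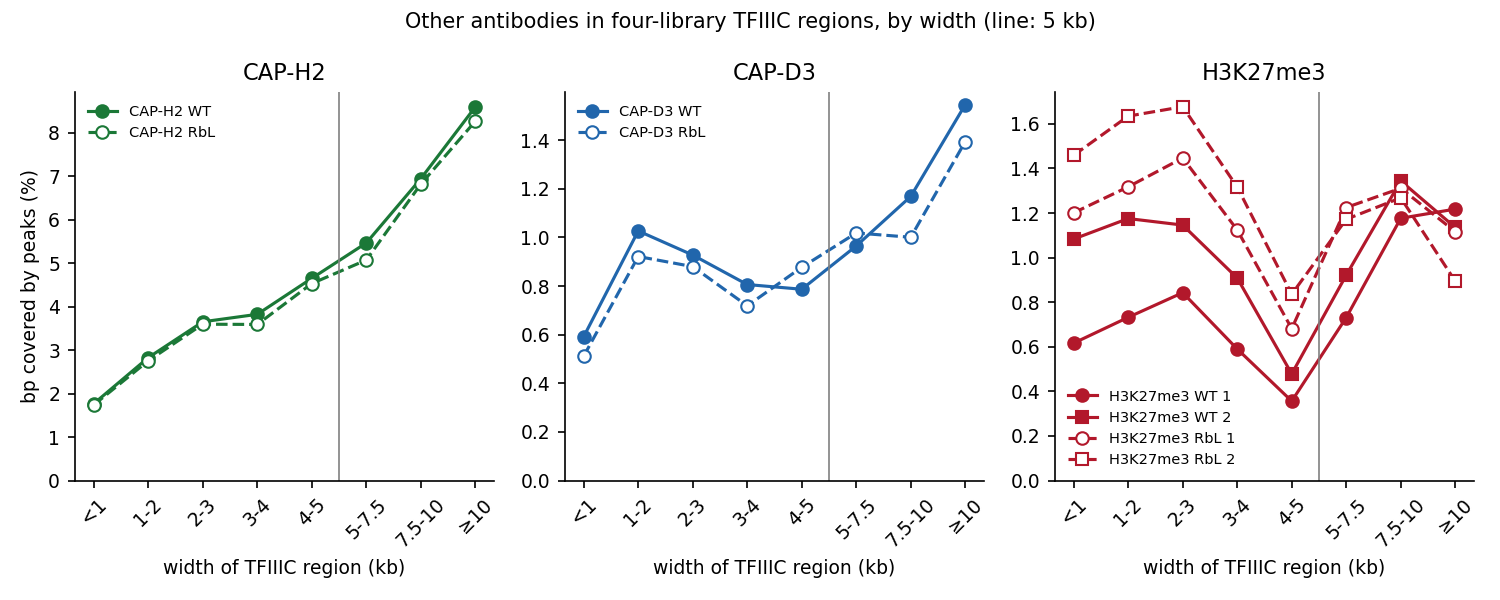
Percentage of base pairs covered by H3K27me3, CAP-D3 and CAP-H2 peaks in TFIIIC regions of all 4 libraries, by region width, with a line for each library. The vertical line marks the 5 kb limit, and CAP-H2 goes from 1.77% to 8.60% in WT and from 1.74% to 8.27% in RbL.

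Between genotypes the condensin II calls in the blocks overlapped in part, CAP-H2 more than CAP-D3, with 1 library each and therefore no test. Of 856 blocks with a CAP-H2 peak in either genotype, 576 had it in both (67.3%, exact 95% binomial interval 64.0 to 70.4). A CAP-H2 peak in WT and none in RbL was found in 149 of them (17.4%), where 19.9% of all four-library regions with CAP-H2 did so. The opposite held in 131 (15.3%), against 17.4%. Of 333 blocks with CAP-D3 in either genotype, 180 had it in both (54.1%, interval 48.5 to 59.5). It was only in the WT list in 94 (28.2%, against 28.4%) and only in the RbL list in 59 (17.7%, against 15.3%). The shares found in 1 genotype lie near those of all four-library regions. Among regions under 5 kb with the subunit in either genotype, 61.9% for CAP-H2 and 56.7% for CAP-D3 had it in both.

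Peaks found in 1 genotype had lower scores than shared ones. The median top score of CAP-H2 in shared blocks was 347 in WT and 460.2 in RbL, against 113 in blocks with WT peaks alone and 149.8 in those with RbL peaks alone. For CAP-D3 the corresponding medians were 1206, 1389, 262 and 428. Both subunits in both genotypes marked 140 blocks (5.61%), against 1.92% of regions of 2 to 5 kb and 1.26% of all those under 5 kb, shares of regions that do not allow for width. CAP-H2 was in both genotypes in 140 of the 180 blocks with CAP-D3 in both (77.8%), close to the 76.9% in regions under 5 kb. A further 345 blocks (13.8%) had CAP-H2 in both genotypes and no CAP-D3 peak.

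Condensin II cover was higher just outside the blocks than in their centres. This comparison was chosen after the peak profiles were seen. Within 1 kb outside the block edges, CAP-D3 peaks covered 3.42% of base pairs in the WT list and 3.57% in the RbL list. The central 1 kb was covered over 0.577% and 0.562%. Between 9 and 10 kb outside they covered 2.20% and 2.19%. CAP-H2 peaks covered 11.2% and 10.6% within 1 kb outside, 4.62% and 4.41% of the central 1 kb, and 7.24% and 6.99% between 9 and 10 kb outside. In all 4 lists the flank was thus higher than both the centre and the more distant surroundings.

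The flank exceeded the centre by 5.93-fold and 6.36-fold for CAP-D3 in WT and RbL, and by 2.41-fold and 2.40-fold for CAP-H2. The mean log2 ratio was 1.94 ± 0.78 (SD, n = 4 lists), with p = 0.125 in the two-sided exact sign-flip permutation test, again the smallest possible. In four-library regions of 2 to 5 kb the mean log2 ratio was 0.81 ± 0.21. The difference between the blocks and these regions was 1.13 ± 0.57 (SD, n = 4 lists, exact p = 0.125) and had the same sign in all 4 lists. Relative to 9 to 10 kb outside, the flank of the blocks was higher by a mean log2 of 0.64 ± 0.05 (n = 4 lists, exact p = 0.125). For regions of 2 to 5 kb that value was 0.08 ± 0.10 (exact p = 0.5), positive in 2 of 4 lists.

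**Figure D4:**
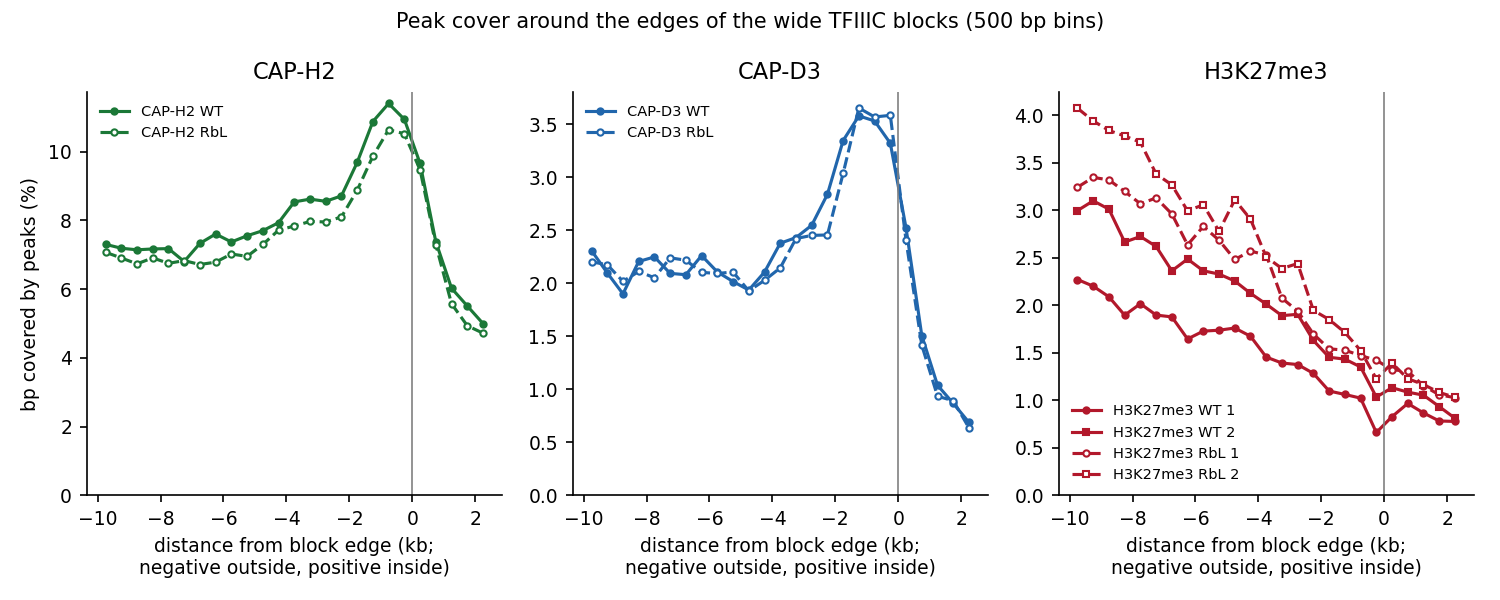
Peak cover in 500 bp bins from outside to inside the block edges, with both edges turned to the same direction, for each antibody and library. CAP-D3 and CAP-H2 cover is higher within 1 kb outside the edge than in the centre, while H3K27me3 is lower near the block than 9 to 10 kb away.

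Single peaks were also placed against the edges. Of the 307 CAP-D3 peaks that touched a block in WT, 151 (49.2%) crossed 1 of its edges, and of 270 in RbL, 148 (54.8%) did. For CAP-H2 these were 485 of 1182 (41.0%) and 473 of 1139 (41.5%). In regions of 2 to 5 kb, which have less room inside, larger shares crossed 1 edge: 59.4% and 68.4% of CAP-D3 peaks and 60.3% and 59.6% of CAP-H2 peaks. Crossing an edge was thus not more common at the blocks, whereas a peak just outside an edge was. Of the 4988 block edges, 904 in WT (18.1%) and 854 in RbL (17.1%) had a CAP-H2 peak within 1 kb outside, against 8.59% and 8.36% of the edges of 2 to 5 kb regions. CAP-D3 peaks lay there at 343 (6.88%) and 322 (6.46%) edges, against 2.94% and 2.66%. Cover 9 to 10 kb outside was also higher around the blocks, in WT 7.24% against 4.54% for CAP-H2 and 2.20% against 1.43% for CAP-D3. Its part in these edge counts was not tested. In the central 1 kb, a CAP-D3 peak was present in 27 blocks in WT (1.08%) and in 25 in RbL (1.00%). For regions of 2 to 5 kb these shares were 1.55% and 1.32%.

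TFIIIC and condensin II cells were fixed differently, and the part of fixation in the edge pattern was not tested. Block edges are by construction the places where TFIIIC peaks end. Without the blocks that held a peak in all 12 lists the mean log2 ratio was 2.12. Those blocks were picked in part by condensin II peaks inside them. Their removal thus favours a higher ratio, and nothing is read from it.

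In 13 blocks, from 5029 to 28576 bp wide, the top score of both condensin II subunits was at least 3100 in both genotypes, so the score does not order them. The widest of these lay at chromosome 10, 80600294 to 80628869 (28576 bp), inside the chain of 21 blocks. It carried 1 CAP-D3 peak in each genotype, over 1.70% of its length in both, and 5 CAP-H2 peaks over 19.3% in WT and 18.4% in RbL, all with a top score of 3100. At chromosome 15, 76015341 to 76030323, CAP-H2 covered 78.9% and 66.6% and CAP-D3 13% and 8.8%. At chromosome 15, 77603223 to 77629176, 1 of the 8 widest blocks, CAP-H2 covered 96.2% in WT and 94.3% in RbL, while CAP-D3 covered 0.420% and 1.02%. CAP-H2 thus filled this block, whereas CAP-D3 held a small stretch of it.

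H3K27me3 was rare in the blocks. Peaks were found in 71 blocks in WT 1 (2.85%), 96 in WT 2 (3.85%), 118 in RbL 1 (4.73%) and 102 in RbL 2 (4.09%). In 2323 blocks (93.1%) no H3K27me3 library had a peak, and in 43 (1.72%) all 4 had. The share of block base pairs covered was 0.943% and 1.06% in the WT libraries and 1.22% and 1.13% in the RbL libraries. Both RbL values were above both WT values, as also in regions under 5 kb (0.705% and 1.08% in WT, 1.27% and 1.54% in RbL).

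Averaged by genotype, the covered share was 1.00% ± 0.085 (SD, n = 2) in WT and 1.17% ± 0.064 (SD, n = 2) in RbL. The difference of 0.169 percentage points gave p = 0.33 in a two-sided exact permutation test, the smallest p that 2 against 2 allows. In blocks of at least 10 kb the difference was turned, at −0.171 points. H3K27me3 WT 1 had the shortest H3K27me3 list and the lowest share, and the part of list length was not tested.

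Relative to regions under 5 kb, the sign of the H3K27me3 difference varied between libraries. The log2 ratio of covered shares was 0.42 in WT 1, −0.02 in WT 2, −0.06 in RbL 1 and −0.45 in RbL 2. The mean was −0.03 ± 0.35 (SD, n = 4 libraries, two-sided exact sign-flip p = 0.625). The sign turned without RbL 2 (0.11) and against regions of 2 to 5 kb (0.044). Without the 9 blocks that held a peak in all 12 lists it was −0.48 (exact p = 0.125), lower in the blocks in all 4 libraries. Those 9 blocks were picked in part by their H3K27me3 peaks, while the 59 such regions under 5 kb were kept. The removal thus favours a lower value in the blocks, and nothing is read from it.

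H3K27me3 cover was lower next to the blocks than farther out. Between 9 and 10 kb outside, H3K27me3 peaks covered 2.24%, 3.05%, 3.29% and 4.01% of base pairs in WT 1, WT 2, RbL 1 and RbL 2. Within 1 kb outside they covered 0.842%, 1.19%, 1.45% and 1.38%, and in the central 1 kb 0.852%, 0.896%, 1.30% and 0.946%. The near flank was lower than the distant one by a mean log2 of −1.37 ± 0.15 (SD, n = 4 libraries, exact sign-flip p = 0.125), in all 4 libraries. Regions of 2 to 5 kb gave −1.09 ± 0.09, and the difference from them was −0.29 ± 0.21 (exact p = 0.125, lower in 4 of 4 libraries). Between the near flank and the centre, H3K27me3 gave a mean log2 ratio of 0.27 ± 0.25 (exact p = 0.25), higher outside in 3 of 4 libraries. Its difference from condensin II was not tested. This comparison was also chosen after the profiles were seen.

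Where H3K27me3 was found in all 4 libraries, it often covered much of the block. Over the 43 such blocks the mean covered share ranged from 7.16% to 100%, with a median of 33.4%, and 17 blocks were above 50%. Of the 5 blocks with the highest minimum share, 3 lay near each other on chromosome 17. At 35555419 to 35564334, H3K27me3 peaks covered 100% of the block in all 4 libraries. At 35571304 to 35578716 they covered 100%, 99.0%, 100% and 100%, and at 36196294 to 36202417 they covered 95.5%, 100%, 100% and 100%. The first pair lay under the same H3K27me3 peak in WT 1, RbL 1 and RbL 2 and is not independent. None of these 3 had a condensin II peak. Of the 43 blocks, CAP-H2 was in both genotypes in 11 and CAP-D3 in 9. Over all 2494 blocks these numbers were 576 and 180, and the difference was not tested.

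**Figure D5:**
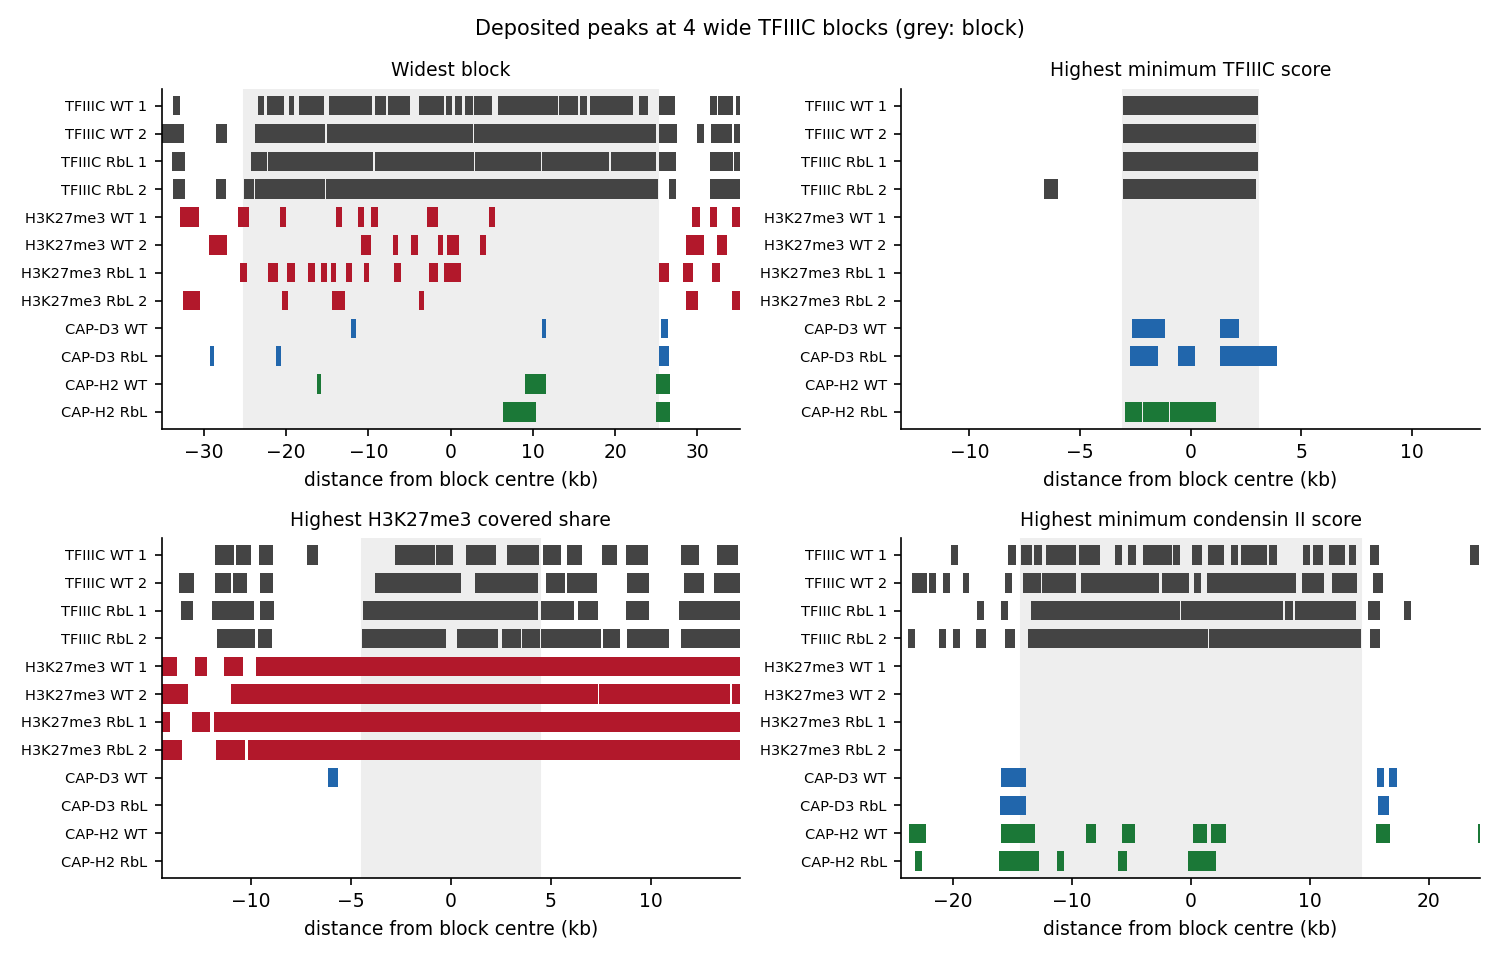
Deposited peaks of all 12 lists at 4 blocks with 10 kb on either side (x axis, distance from the block centre in kb; shading, the block): the widest block, a block with a TFIIIC score of at least 3100 in every library, the block with the highest minimum H3K27me3 share, and the widest of the 13 blocks tied at the top condensin II score. The WT 1 list splits the widest block into 19 peaks, and H3K27me3 covers 100% of the block ranked by H3K27me3.

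Region by region, no block passed the test of H3K27me3 between genotypes. The limma fit used 4229 four-library regions with an H3K27me3 peak in at least 1 library, among them 171 of the 2494 blocks, and adjusted p-values over all of them by the Benjamini-Hochberg method. At an adjusted p of 0.05 it called 0 blocks higher in RbL, where 0% of all regions tested were called, and 0 blocks lower, where 0% were called. At an unadjusted p under 0.05 there were 2 blocks and 246 regions, and the smallest adjusted p was 0.516. The log2 difference, on the scale of log2(covered bp per kb + 10), was positive in 124 blocks and negative in 46. Its median was 0.57 over the blocks tested and 1.36 over all regions tested.

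Both RbL libraries were above both WT libraries in 33 blocks (19.3%), where 15.1% of all regions tested showed this order. They were below both in 8 blocks (4.68%), against 2.27%. The limma count rested on the RbL libraries. Without RbL 1 it called 29 blocks in either direction (17.0% of the 171, against 28.4% of all regions tested), and without RbL 2 it called 45 (26.3%, against 23.7%). Each of these fits had 1 RbL library, which was taken to vary like the WT pair. With H3K27me3 peaks required in at least 2 libraries it called 1 block of 100 tested, against 226 of 1952 regions in all (11.6%).

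The 2 blocks with the smallest p were on opposite sides. At chromosome 6, 47601279 to 47628966 (27688 bp), H3K27me3 covered 90.1% and 65.7% in WT and 15.4% and 30.4% in RbL, with limma log2 −1.78 ± 0.47 (SE) and adjusted p = 0.516. At chromosome 5, 26332814 to 26338160, it covered 62.5% and 58.3% in WT and 80.8% and 100% in RbL, with limma log2 0.57 ± 0.18 (SE) and adjusted p = 0.516. At chromosome 6, 47705644 to 47716919, it covered 43.4% and 16.6% of the block in the WT libraries, against 76.9% and 78.8% in those of RbL. These 3 blocks were taken by smallest limma p from the same libraries, so nothing is read from the separation of the genotypes in them. The 2 chromosome 6 blocks, which lie close together, differed in opposite directions. A block between them, at 47628989 to 47637158, was covered over 88.6% and 96.3% in WT and over 0% and 26.5% in RbL. It too was taken by small limma p (adjusted p = 0.516), and it starts next to the block that ends at 47628966. It is not separate evidence, and nothing is read from it.

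A peak in all 12 lists was found in 9 of the 2494 blocks and in 59 of the 73238 four-library regions under 5 kb. These counts do not allow for width. The 9 blocks were picked in part by their H3K27me3 and condensin II peaks. Their large share of that cover thus follows in part from the choice and is a description. These 9 blocks made up 0.741% of block length (137 kb). They held 36.2%, 26.3%, 23.8% and 22.0% of the block base pairs covered by H3K27me3 in WT 1, WT 2, RbL 1 and RbL 2. They also held 13.9% and 11.7% of those covered by CAP-D3 and 4.71% and 5.24% of those covered by CAP-H2. The widest block and the chromosome 6 blocks that start at 47601279 and 47705644 are among them. At chromosome 17, 39979418 to 39986155 (6738 bp), each of the 12 lists had a single peak with a score of 3100. The lowest covered share there was 90.0%, in CAP-D3 WT. Peaks of every antibody at such blocks and their presence in the inputs cannot be told apart, since the inputs were not analysed here.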

How the data were processed

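Peak lists of 12 ChIP-seq libraries were used: 2 for TFIIIC and 2 for H3K27me3 in either genotype, with a single one for each condensin II subunit. The authors deposited intervals with a score per peak, taken as −10 times log10 of the p-value from the values; the column is unnamed. Per the submitters' processing notes, Bowtie2 2.3.0, MACS 1.4.0rc2 and mm9 were used; settings are not given in the sources used here. Chromosomes 1 to 19 were kept. The 4 TFIIIC lists were merged by 1 bp overlap.

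Cover is the percentage of base pairs under peaks. It was compared by exact permutation (2 against 2 libraries) and exact sign-flip tests (4 lists). H3K27me3 per region was fitted with limma 3.58.1 (R 4.3.3, trend, 10 bp per kb added, no replicate block). Shares have exact Clopper-Pearson 95% intervals. Alternatives were score of at least 100, gaps, widths, pseudocount and left-out libraries.

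Blocks and lists were chosen with earlier results of these data known, and the edge comparisons after seeing the profiles. Named blocks were the 8 widest, 5 each by highest minimum TFIIIC score, H3K27me3 cover and condensin II score over 4 lists, 3 per direction by limma p, and 3 on each side of 5 kb, with ties by mean score and then by width. The 9 blocks with peaks in all 12 lists were added.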

Additional observations from a re-analysis of the deposited data

How the results depend on the processing

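The number of blocks depended on the rule: 15833 with gaps of up to 1 kb, 4271 at 4 kb, 324 at 10 kb, 2469 at a score of at least 100 (2467 shared), and 1491 to 2191 when 1 TFIIIC library was left out. The RbL minus WT difference in H3K27me3 cover was −0.171 points at 10 kb and kept its sign in the other 6 alternatives. The H3K27me3 log2 ratio against narrower regions was 0.044 against regions of 2 to 5 kb, and −0.178 to 0.111 when 1 H3K27me3 library was left out. limma called 1 block when a peak in at least 2 libraries was required, and 0 to 45 when 1 library was left out (over all regions, 226 of 1952, and 0 to 1199 of 4229); the cause was not tested. With a replicate block it called 0 blocks, with 4 at an unadjusted p under 0.05 and a smallest adjusted p of 0.750. Same-numbered libraries deviated with a correlation of 0.0095 over 4229 regions, so the numbers were not taken to pair them. Without a filter limma could not be fitted. The mean condensin II edge ratio kept its sign in all 8 alternatives. 1 of these removed the blocks with a peak in every list, which favours a higher ratio, and nothing is read from it. The mean ratio of condensin II covered shares was 0.57 against regions of 2 to 5 kb and 0.64 at a score of at least 100. It was 0.57 without the blocks with a peak in every list, which were picked in part by condensin II peaks. Single lists taken alone repeat the main result and are no separate check. Against the 36 wide regions missing from 1 or more libraries the mean log2 ratio was 0.37 (exact p = 0.875). CAP-D3 was turned there (−0.85 in WT, −1.68 in RbL), and CAP-H2 was at 1.61 and 2.40. With 1 condensin II library per genotype, a genotype difference has no replicate check.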

Other observations

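Only 36 regions were at least 5 kb wide and lacked a peak in 1 or more TFIIIC libraries, against 2494 blocks. Blocks that carried no other antibody were covered by TFIIIC over 45.8%, 65.9%, 86.0% and 87.3% of their base pairs in WT 1, WT 2, RbL 1 and RbL 2. The 115 blocks with both condensin II subunits in both genotypes and no H3K27me3 were covered over 59.9%, 74.2%, 87.1% and 87.6%, and their median width was 7820 bp against 6220 bp.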
